A study of Mus musculus with 12 samples.

Results

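The chains described here are the T cell receptor beta (TRB) chains whose CDR3 ends in the residues DTQYF, the end that the mouse joining segment Trbj2-5 encodes, outside the family CASSRTGGxQDTQYF (x is any residue). A chain was taken as a member when its CDR3 amino acid sequence was in frame, held no stop or unresolved residue, began with C, ended in DTQYF and did not belong to that family. The members were chosen by their CDR3 letters and by a read measure: the family was set aside because earlier results of these data had shown it to be abundant, and the J end was picked with read shares in view. By this rule 574 of 3884 different productive TRB CDR3 sequences were members (14.8%), encoded by 938 different nucleotide sequences. They held 176127 of 746357 productive TRB reads (23.6%). The family itself has 11 sequences, and 122 of the members lie 1 residue from it.

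The libraries came from CD8+ T cells of mice that had received MC38 cells, a mouse colon carcinoma line. KO mice lack TrIP in CD8 cells only, and WT mice do not carry this deletion. The labels do not name the driver of the deletion. TrIP is a transmembrane protein known to restrain phosphoinositide kinase signalling in T cells. On day 10 after the injection, cells that bound an Rpl18 tetramer, a peptide and MHC multimer that marks T cells of that specificity, were sorted from the tumor or from the tumor-draining lymph node (TDLN), and TCR transcripts were amplified with TCR-specific primers. All groups share the tumor line, the day, the CD8 gate and the tetramer gate. TRB rows were present for 8 of 12 libraries: KO tumor 1, 2 and 3, WT tumor 2, 3 and 4, KO TDLN 3 and WT TDLN 4. The other 4 libraries, all TDLN, carry a timed_out note in the run table and are not analysed here. No label says that each library is a separate mouse, so p-values measure the spread between these libraries only. TCR reads hold no markers against which the sort, or the loss of TrIP, could be checked.

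A TRB chain is built in the thymus by joining a V, a D and a J segment. The CDR3 is the loop across that junction, and it makes much of the contact with the peptide. Nucleases trim the segment ends and an enzyme adds untemplated bases before the ends are sealed, so the bases next to the J end differ between clones while the end itself is read from the germline. The D segments are short and rich in G, which is why glycine runs are common in the middle of the loop. Descendants of 1 T cell carry the same nucleotide sequence, whereas unrelated cells can reach the same amino acids through different codons. Trbj2-5 lies on mouse chromosome 6 between Trbj2-4 and the pseudogene Trbj2-6 in the RefSeq annotation of GRCm38.p6. The names given to V segments in the files come from a human set and were not used.

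The most frequent last 21 bases of the members encode asparagine and glutamine ahead of the shared end and were found in 220 of 938 nucleotide sequences (23.5%). They serve below as the measure of how much of the J end a chain kept. Bases in capitals are those that match this end without a break, and bases in lower case come before the match.
Most frequent end: AACCAAGACACCCAGTACTTT

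The largest member of each library is shown because these few sequences carried most member reads. Each is written 5′ to 3′ from the conserved cysteine codon to the phenylalanine codon.
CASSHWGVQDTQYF in KO tumor 1: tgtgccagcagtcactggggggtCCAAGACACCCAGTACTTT
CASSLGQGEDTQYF in KO tumor 2: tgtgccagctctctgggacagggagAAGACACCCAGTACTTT
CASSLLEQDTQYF in KO tumor 3: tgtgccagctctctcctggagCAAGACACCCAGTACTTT
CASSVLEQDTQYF in WT tumor 2: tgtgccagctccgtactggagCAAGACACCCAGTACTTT
The 15-residue chain of WT tumor 3 and KO TDLN 3: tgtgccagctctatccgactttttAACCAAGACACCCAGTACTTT
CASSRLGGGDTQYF in WT tumor 4: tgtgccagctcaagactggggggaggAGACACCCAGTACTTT
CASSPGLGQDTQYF in WT TDLN 4: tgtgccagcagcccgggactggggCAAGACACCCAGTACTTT
Chains of 15 residues or more are described by length and library instead of by their letters. The kept end is 21 bases long in the chain of WT tumor 3 and KO TDLN 3, 19 in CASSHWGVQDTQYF, 18 in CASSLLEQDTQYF, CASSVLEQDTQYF and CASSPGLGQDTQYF, 17 in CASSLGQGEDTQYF and 16 in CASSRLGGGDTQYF. The 7 chains thus share the same 16 last bases and part company within the 5 bases before them.

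Libraries were not independent of each other in their clones. WT tumor 3 and KO TDLN 3, which differ in genotype and in tissue, shared 76 member nucleotide sequences and had a Morisita-Horn index of 0.959, where 0 means no shared reads and 1 means the same composition. KO tumor 2 and KO tumor 3 shared 65 sequences (index 0.332), and KO tumor 1 and WT tumor 4 shared 14 (0.334). These 3 pairs, of 28, were the only ones above 0.1. The median pair shared 1 sequence, and 12 pairs shared 0. Library names begin with 1 of 6 letters, and the labels do not say what a letter stands for. KO tumor 3 and KO TDLN 3 have one letter in common and shared only 3 sequences (0.00109), while WT tumor 4 and WT TDLN 4 have another in common and shared 0. WT TDLN 4 shared none with any other library. Comparisons below are therefore also given with sequences of several letters left out where that moved the value by over 1.5 times or turned it.

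**Figure D1:**
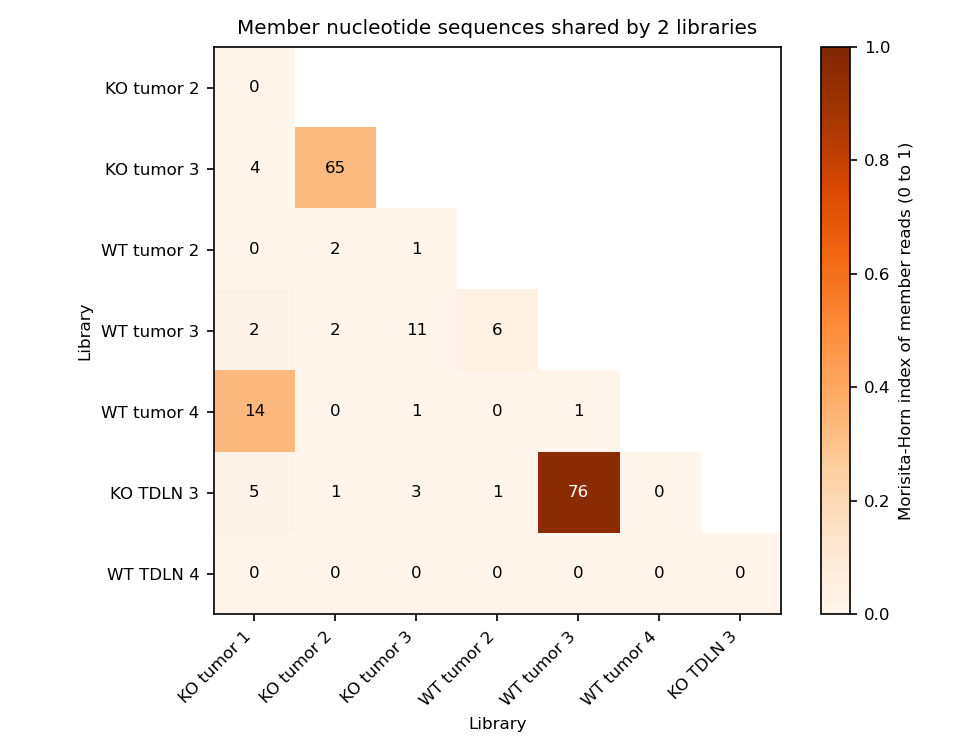
Number of member nucleotide sequences shared by each pair of libraries (figures in the cells) and the Morisita-Horn index of their member reads (colour, 0 to 1). The pair of KO TDLN 3 and WT tumor 3 stands at 76 shared sequences, and the bottom line, WT TDLN 4, holds 0 throughout.

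Depth ranged over 23755 to 188616 productive TRB reads a library, 91.9% to 98.9% of its TRB reads. Reads carry no molecular identifiers, so the 95% Wilson intervals below cover counting error only. A sequence with 0 reads could still hold up to 3 reads' worth of a library, between 0.00159% in WT tumor 4 and 0.0126% in WT TDLN 4.

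The members' share of productive TRB reads differed more between libraries of 1 genotype than between genotypes. In KO tumors 1, 2 and 3 the members held 2.29% (95% interval 2.19 to 2.39), 20.3% (20.1 to 20.6) and 52.0% (51.7 to 52.2). In WT tumors 2, 3 and 4 they held 6.98% (6.77 to 7.20), 61.7% (61.4 to 62.1) and 0.674% (0.638 to 0.712). Both genotypes thus spanned a low, a middle and a high library, and their ranges overlapped. The lymph node libraries gave 35.2% (34.9 to 35.5) in KO TDLN 3 and 13.8% (13.3 to 14.2) in WT TDLN 4. Among 14 classes of CDR3 end, the members ranked first in KO tumor 3, WT tumor 3 and KO TDLN 3, second in KO tumor 2, and ninth in WT tumor 4. The family that was set aside held 4.12%, 40.8% and 14.2% in KO tumors 1, 2 and 3, and 7.58%, 18.4% and 20.4% in WT tumors 2, 3 and 4. It held less in the lymph node libraries with TRB rows, at 0.0214% in KO TDLN 3 and 0.842% in WT TDLN 4.

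The mean member share was 24.9% ± 25.1 in KO tumors and 23.1% ± 33.6 in WT tumors (SD, n = 3 each), a difference of 1.74 percentage points with a two-sided exact permutation p of 0.9. The smallest p that 3 against 3 libraries allow is 0.1. The log2 fold change of the members was 0.10 (SE 2.36) in edgeR's quasi-likelihood test over the 14 end classes, with an adjusted p of 0.977. edgeR called 0 of the 14 classes (0%), and 1 of 14 at an unadjusted p under 0.05 (7.14%), which was not the members. With sequences of several letters left out, the log2 fold change was 0.78 (edgeR adjusted p = 0.810). Its direction turned when any one of 3 libraries was left out: it was -1.03 without KO tumor 3, -0.33 without WT tumor 2 and -0.47 without WT tumor 4. Without WT tumor 3 it was 2.70 (edgeR adjusted p = 0.858).

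**Figure D2:**
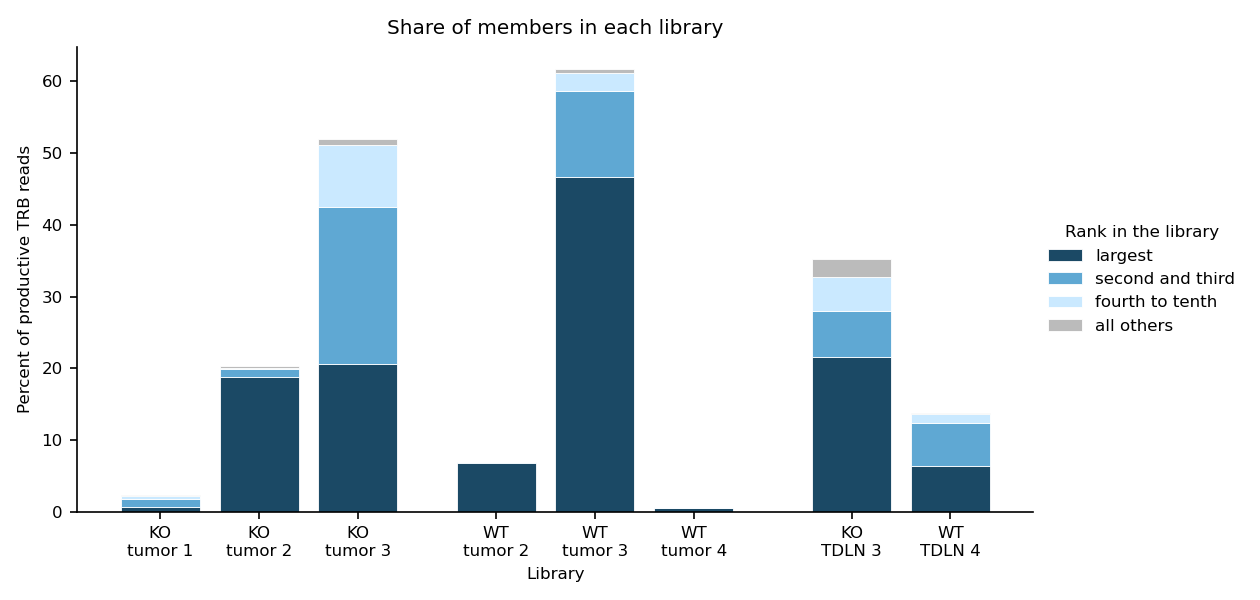
Percent of productive TRB reads held by members in each of the 8 libraries, split by the rank of the member within its library (bars start at 0). In WT tumor 3 a single member fills 46.7% of all TRB reads, while in KO tumor 3 the largest fills 20.6% and the next 2 together 21.9%.

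A handful of chains made up nearly all of these reads. Only 14 members reached 1% of the TRB reads of any library, and they held 92.8% of all member reads. Of these 14, 5 reached 1% in 2 libraries and 9 in a single library, and 4 were found in 1 library alone. At the other end, 286 of 574 members were never seen with more than 1 read. The largest member held 31.1%, 92.6% and 39.7% of the member reads of KO tumors 1, 2 and 3, against 98.1%, 75.6% and 74.1% in WT tumors 2, 3 and 4. It held 61.1% in KO TDLN 3 and 46.6% in WT TDLN 4.

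The 15-residue chain that leads WT tumor 3 and KO TDLN 3 was the most abundant member over the 8 libraries. It held 46.7% of TRB reads in WT tumor 3 and 21.5% in KO TDLN 3, the pair of libraries that shared most clones. It also had 14 reads in KO tumor 1 (0.0162%) and 35 in KO tumor 3 (0.0286%), with the same leading nucleotide sequence throughout, and 0 in KO tumor 2, WT tumors 2 and 4 and WT TDLN 4. This chain keeps all 21 bases of the J end, and so has asparagine and glutamine ahead of it.

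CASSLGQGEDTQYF was high in a pair of KO tumors. It held 18.8% of TRB reads in KO tumor 2 and 10.4% in KO tumor 3, with 0 reads in KO tumor 1, 11 in WT tumor 2 (0.0206%), 8 in WT tumor 3 (0.00978%) and 0 in WT tumor 4. Neither lymph node library had a read of it. Its glycine, glutamine and glycine run is followed by glutamate, so the J end begins later than in the leading chain of WT tumor 3.

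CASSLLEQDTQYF and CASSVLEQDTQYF differ by 1 residue and were abundant in different libraries. The first held 20.6% of TRB reads in KO tumor 3, against 13 reads in WT tumor 3 (0.0159%) and 1 in WT tumor 2. The second had 4 reads in KO tumor 2, 1 in KO tumor 3 and 5 in KO TDLN 3, against 6.85% of TRB reads in WT tumor 2 and 1.44% in WT tumor 3. Both keep 18 bases of the J end, and neither was found in WT tumor 4 or WT TDLN 4.

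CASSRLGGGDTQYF was found in libraries of 4 letters through more than 1 nucleotide sequence. It held 0.408% of TRB reads in KO tumor 1 and 11.5% in KO tumor 3, against 10 reads in WT tumor 3 (0.0122%) and 0.499% in WT tumor 4, and it had 1 read in KO TDLN 3. All 4 encodings with over 10 reads in total are shown, since they divide the libraries.
First encoding of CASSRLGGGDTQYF: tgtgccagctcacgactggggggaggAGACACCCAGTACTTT
The next encoding of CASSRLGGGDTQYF: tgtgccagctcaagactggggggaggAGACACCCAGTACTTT
Further encoding of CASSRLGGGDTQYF: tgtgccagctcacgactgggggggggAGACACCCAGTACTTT
Last encoding of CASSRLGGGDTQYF: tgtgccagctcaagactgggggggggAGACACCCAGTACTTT
The first had 13871 reads in KO tumor 3 and 10 in WT tumor 3, and none elsewhere. The next had 348 reads in KO tumor 1, 1 in KO tumor 3 and 923 in WT tumor 4. Both rarer encodings kept to the same division: the further one had 76 reads in KO tumor 3 only, and the last had 4 in KO tumor 1 and 17 in WT tumor 4. The encodings that lead in the KO tumor 3 set and in the KO tumor 1 set differ by 1 base.

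A 16-residue chain with a tryptophan and a glycine pair, and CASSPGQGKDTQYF, were both high in KO TDLN 3 and WT tumor 3. The 16-residue chain held 1.37% of TRB reads in KO TDLN 3 and 0.0818% in KO tumor 3, against 8.18% in WT tumor 3. Its leading nucleotide sequences are shown because that of KO tumor 3 (90 reads) differed by 1 base from the one that KO TDLN 3 (1203 reads) and WT tumor 3 (6643 reads) had in common.
16-residue chain in KO tumor 3: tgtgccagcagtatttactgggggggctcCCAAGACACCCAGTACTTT
16-residue chain in KO TDLN 3 and WT tumor 3: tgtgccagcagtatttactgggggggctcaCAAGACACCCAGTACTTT
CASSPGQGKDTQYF, which has lysine ahead of the shared end, held 5.17% in KO TDLN 3 against 3.82% in WT tumor 3, with the same leading nucleotide sequence in both. In the tumors other than WT tumor 3 it had 4 reads in KO tumor 1, 5 in KO tumor 3 and none elsewhere.

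KO tumor 3 held further large members that the other libraries lacked or nearly lacked. These were a 15-residue chain with the full J end (3.84% of its TRB reads), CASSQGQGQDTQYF (2.03%) and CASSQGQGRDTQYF (1.35%). They had at most 5 reads in any other library, and the last had none. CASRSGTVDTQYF held 1.02% in KO tumor 2 and 0.331% in KO tumor 3, through the same leading nucleotide sequence, and was not found elsewhere. With 6 members at or above 1% and 11 at or above 0.1%, KO tumor 3 had the most large members among the tumors.

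The 3 members above 1% in WT TDLN 4 were found in no other library. They were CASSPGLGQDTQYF (6.42% of its TRB reads), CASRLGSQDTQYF (4.43%) and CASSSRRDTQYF (1.53%). KO TDLN 3 had 3 members above 1% but 21 above 0.1%, the broadest spread of the 8 libraries. Among those above 0.1% were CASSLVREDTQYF at 0.921%, a 16-residue chain at 0.903% and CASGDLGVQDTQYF at 0.680%. A chain of 17 residues, the longest class of members, held 0.902% of WT tumor 3.

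In KO tumor 1 and WT tumor 4, where members were scarce, no member reached 1%. KO tumor 1 held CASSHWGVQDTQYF at 0.711%, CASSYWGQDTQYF at 0.633% and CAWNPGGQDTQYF at 0.430%, none of them found in any other library. WT tumor 4 held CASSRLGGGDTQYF at 0.499% and no other member above 0.1%. Its member reads were also the richest in close relatives of the family: 20.7% belonged to members 1 residue from it. In KO tumors 1, 2 and 3 that figure was 0.859%, 1.27% and 0.436%, and in WT tumors 2 and 3 it was 0.939% and 0.204%. KO TDLN 3 had 0 such reads and WT TDLN 4 had 0.0305%. These percentages are of member reads. In WT tumor 4 members held only 0.674% of TRB reads and the family 20.4%, and the relatives were not set against the family's reads. Whether these relatives in WT tumor 4 are clones of their own or copies of family sequences read with an error was not tested.

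The number of different member nucleotide sequences varied several-fold within each genotype. KO tumors 1, 2 and 3 listed 53, 129 and 293, against 48, 250 and 86 in WT tumors 2, 3 and 4, and KO TDLN 3 and WT TDLN 4 listed 213 and 47. Rarefied to 53402 productive reads, the depth of the smallest tumor library, the expected numbers were 38.3, 92.0 and 197.4 in KO tumors and 48, 201.8 and 42.3 in WT tumors. The groups overlapped, at 109.2 ± 80.9 in KO tumors and 97.4 ± 90.5 in WT tumors (SD, n = 3 each; exact permutation p = 1, adjusted p = 1). With sequences of several letters left out, the difference, KO minus WT, was -29.9 instead of 11.8 (exact permutation p = 0.5). Between 62.8% and 85.4% of the listed sequences of a library were 1 base from a sequence at least 100 times more abundant in it. Such sequences held 1.24% to 2.43% of member reads in 7 libraries and 19.8% in WT tumor 4. The abundant sequence could be one of the family, which in WT tumor 4 held 20.4% of TRB reads, against 0.674% for members. Clone counts are therefore mostly counts of rare neighbours of large clones.

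A stricter set leaves those neighbours out. It holds the nucleotide sequences with at least 10 reads in a library that were not 1 base from one 100 times more abundant, and it was defined after values were seen, so it serves for description only. It kept 54 nucleotide sequences and 47 amino acid sequences, none of them 1 residue from the family. By library it kept 6, 3 and 13 amino acid sequences in KO tumors 1, 2 and 3, and 2, 7 and 3 in WT tumors 2, 3 and 4. KO TDLN 3 had 24 and WT TDLN 4 had 6. Of the 47, 16 were found under several letters. In most libraries the members thus came down to a few sequences of at least 10 reads, and KO TDLN 3 held the most. The set still holds less rare 1-base neighbours of larger members, such as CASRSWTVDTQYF and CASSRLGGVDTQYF. Whether those are clones of their own was not tested.

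Clonality, which is 0 when all clones are equal and 1 when a single clone holds every read, was 0.579, 0.894 and 0.687 in KO tumors 1, 2 and 3. In WT tumors 2, 3 and 4 it was 0.946, 0.826 and 0.649, and it was 0.683 in KO TDLN 3 and 0.632 in WT TDLN 4. The means were 0.720 ± 0.160 in KO tumors and 0.807 ± 0.149 in WT tumors (SD, n = 3 each), and the ranges overlapped (exact permutation p = 0.5, adjusted p = 0.786). The largest nucleotide sequence held 53.7% ± 32.2 of member reads in KO tumors and 81.8% ± 13.6 in WT tumors (exact permutation p = 0.3, adjusted p = 0.786). With sequences of several letters left out, both differences turned: clonality was higher in KO tumors by 0.347 (exact permutation p = 0.4) and the largest sequence by 20.3 points (exact permutation p = 0.3). Neither direction held under both ways of counting.

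Members were 11 to 17 residues long. Over the 47 sequences of the stricter set, 14 residues was the most common length (19 sequences), followed by 13 (11 sequences) and 16 (8 sequences). Over all 574 it was 15 residues (226 sequences), a class that holds all 122 relatives of the family. By reads, the mean length was 13.55, 13.96 and 13.68 residues in KO tumors 1, 2 and 3, against 13.02, 15.05 and 14.21 in WT tumors 2, 3 and 4. It was 14.69 in KO TDLN 3 and 13.66 in WT TDLN 4. The values followed the leading clone: 76.4% of member reads of WT tumor 3 had 15 residues, the length of its leading chain, and 98.7% of those of WT tumor 2 had 13, the length of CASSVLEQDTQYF. KO tumors averaged 13.73 ± 0.211 residues and WT tumors 14.10 ± 1.02 (SD, n = 3 each; exact permutation p = 0.6, adjusted p = 0.825). The difference, KO minus WT, of -0.369 residues became 0.110 without WT tumor 3. It was larger without sequences of several letters, at -0.758 (exact permutation p = 0.3). Without the largest member of each library it was -1.11, with 13.6 ± 0.428 residues in KO tumors and 14.7 ± 0.525 in WT tumors (exact permutation p = 0.1, the smallest possible, adjusted p = 0.367). That setting leaves few reads in WT tumors 2 and 4, where the largest member held 3657 of 3729 and 942 of 1271 member reads. Relatives of the family, all of 15 residues, held 0.939% and 20.7% of all member reads there. The largest member, not a relative, held 98.1% and 74.1%. Relatives therefore made up much of the reads that remained in WT tumor 2 and most of those in WT tumor 4. The setting was not run with relatives left out as well.

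Set against all other TRB chains of the same tumor library, members were shorter by reads in 5 of 6 tumors. The means were 13.9 ± 0.689 residues for members and 14.8 ± 0.291 for the others (SD, n = 6). The difference was -0.852 residues, with a two-sided exact sign-flip permutation p of 0.0625 (adjusted p = 0.344), and WT tumor 3 was the exception. With sequences of several letters left out the difference was -0.330 residues (exact permutation p = 0.531), and members were then longer in 4 of 6 tumors. Without the largest member of each library it was -0.577 residues (exact permutation p = 0.156). Counted over different sequences instead of reads, the difference was -0.166 residues (exact permutation p = 0.406, adjusted p = 0.786), with members longer in 2 of 6, and -0.381 without sequences of several letters (exact permutation p = 0.375). Against chains ending EQYF, another J2 end, the difference by reads was only -0.0685 residues (exact permutation p = 0.844), with members longer in 3 of 6.

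**Figure D3:**
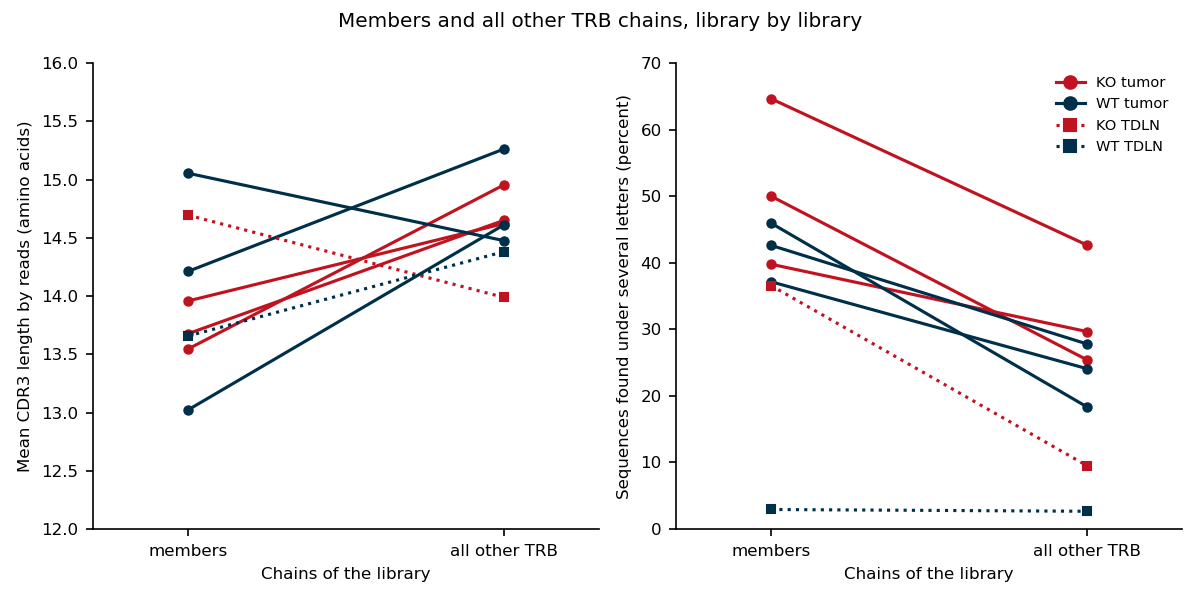
Each line joins the members (left) and all other productive TRB chains (right) of 1 library, with KO in red, WT in dark blue, tumors as circles and lymph nodes as squares. Left panel: mean CDR3 length by reads in amino acids (axis from 12); right panel: percent of different CDR3 sequences found under more than 1 library letter, higher for members in 6 of 6 tumors.

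The share of sequences found under several letters was higher for members than for other chains in each tumor library. The adjusted test could not decide whether this difference holds. Over all 8 libraries, 132 of 574 members (23.0%) were found under several letters, against 354 of 3310 other sequences (10.7%). Within the tumor libraries the share averaged 46.7% ± 9.89 for members and 28.0% ± 8.16 for the others (SD, n = 6). It was higher for members in 6 of 6, by 10.1 to 27.6 points, with an exact sign-flip permutation p of 0.03125, the smallest that 6 libraries can give. Adjusted over the 11 single-value tests, this permutation p became 0.344, above the threshold of 0.05. With so few libraries and 11 tests adjusted together, no adjusted p could have fallen under 0.05, so that value decides nothing here. A sequence shared between tumor libraries counts in each of them. The 6 differences are therefore not independent, although the sign flips treat them so. Against chains ending EQYF alone the mean difference within tumors was 8.70 points, with members higher in 5 of 6 and a range of -57.4 to 36.7 (exact permutation p = 0.531). Much of the difference from all others lay with relatives of the family, of which 47 of 122 (38.5%) were under several letters, against 85 of 452 other members (18.8%). Without those relatives the mean difference was 6.45 points, with members higher in 4 of 6 tumors (exact permutation p = 0.125, adjusted p = 0.688).

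Widely shared members were not all large. Of the 574, 442 were under 1 letter, 101 under 2, 19 under 3, 11 under 4 and 1 under 5. The member under 5 letters, of 15 residues, never passed 0.0227% of a library. It is 1 residue from the family, as were 9 of the 12 members under 4 or more letters, the highest of which reached 0.121% of KO tumor 3. The other 3 were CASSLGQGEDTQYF, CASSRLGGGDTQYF and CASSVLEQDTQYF. The member under 5 letters is shown because it was the most widely shared, and its most read encoding, which had 22 reads in KO tumor 2 and 19 in KO tumor 3, keeps the whole J end.
Most read encoding of the member under 5 letters: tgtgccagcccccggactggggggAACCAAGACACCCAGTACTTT

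Where a member recurred with enough reads, its codons were mostly the same. In libraries of different letters, 17 members had at least 10 reads in 2 or more, giving 31 pairs of libraries. The leading nucleotide sequence was the same in 24 pairs and another in 7. All 7 belonged to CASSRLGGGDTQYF, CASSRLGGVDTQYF and the 16-residue chain of KO tumor 3, and in each the leading sequences differed by 1 base. That base is the same one for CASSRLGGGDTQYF and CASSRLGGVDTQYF. The pairs are not separate cases. Several of the 17 members, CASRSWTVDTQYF and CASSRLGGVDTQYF among them, lie 1 base from a larger sequence and have its other codons. Many pairs also join libraries that shared clones. Whether identical codons in different libraries came from carry-over between libraries or from cells was not tested.

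Right ahead of the shared end, glutamine was the most common residue, as in the uncut J segment. Of the 574 members, 376 had glutamine there (65.5%), 54 glutamate, 38 arginine, 36 glycine, 26 lysine and 20 valine. In the stricter set 30 of 47 had glutamine (63.8%), 4 each had glutamate, arginine and glycine, 3 had valine and 1 had lysine. Asparagine before that glutamine, the full end, was present in 138 of 574 members (24.0%) and in 10 of 47 of the stricter set (21.3%).

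By reads the residue followed each library's leading clone. Glutamine stood there in 80.2%, 1.17% and 52.3% of member reads of KO tumors 1, 2 and 3, against 99.6%, 93.6% and 20.7% in WT tumors 2, 3 and 4. It stood there in 78.4% in KO TDLN 3 and 88.5% in WT TDLN 4. KO tumor 2 was led by glutamate (93.1%, from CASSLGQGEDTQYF) and WT tumor 4 by glycine (74.5%, from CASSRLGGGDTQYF), so a low value occurred in each genotype. The means were 44.5% ± 40.1 in KO tumors and 71.3% ± 43.9 in WT tumors (SD, n = 3 each; exact permutation p = 0.5, adjusted p = 0.786). The difference, KO minus WT, of -26.8 points became -5.08 without KO tumor 2. It was -41.8 points without sequences of several letters (exact permutation p = 0.4). Without the largest member of each library it was -42.1 points, with 36.0% ± 30.6 in KO tumors and 78.1% ± 3.72 in WT tumors (exact permutation p = 0.1, the smallest possible, adjusted p = 0.367). As given for length, WT tumors 2 and 4 keep few member reads in that setting, and relatives of the family make up much of them.

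The pair of asparagine and glutamine held 0.809%, 1.15% and 7.91% of member reads in KO tumors 1, 2 and 3, against 0.965%, 77.7% and 0.393% in WT tumors 2, 3 and 4. It held 65.5% in KO TDLN 3 and 8.52% in WT TDLN 4. The high values belong to WT tumor 3 and KO TDLN 3, which share their leading chain. The means were 3.29% ± 4.01 in KO tumors and 26.3% ± 44.5 in WT tumors (SD, n = 3 each; exact permutation p = 0.9, adjusted p = 0.99), and without WT tumor 3 the difference, KO minus WT, was 2.61 points instead of -23.1. It was -10.2 points without sequences of several letters (exact permutation p = 0.7) and -10.1 without the largest member of each library (exact permutation p = 0.8).

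**Figure D4:**
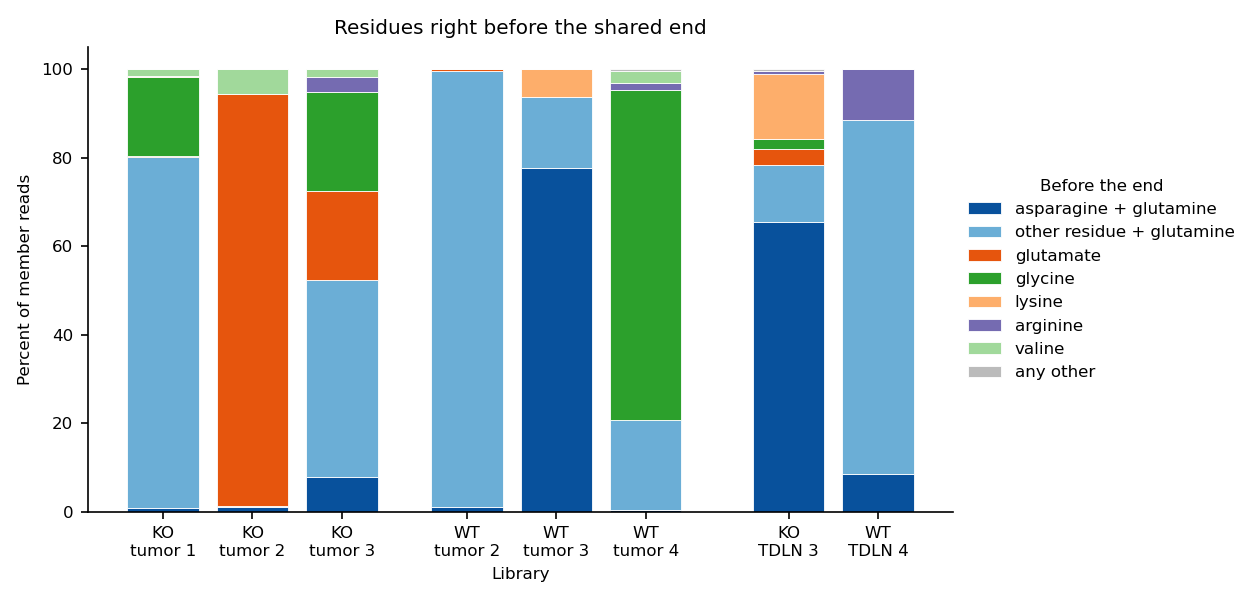
Percent of member reads by the residue right before the shared end in each library, with glutamine split by whether asparagine precedes it. KO tumor 2 is 93.1% glutamate, WT tumor 4 is 74.5% glycine, and WT tumor 3 and KO TDLN 3 are 77.7% and 65.5% asparagine plus glutamine.

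The number of J bases kept showed the same division at the nucleotide level. In the stricter set of 54 nucleotide sequences it ran over 15 to 21 bases with a median of 18, and 10 kept all 21 (18.5%). By reads the mean was 18.2, 17.0 and 17.5 bases in KO tumors 1, 2 and 3, against 18.0, 20.2 and 16.7 in WT tumors 2, 3 and 4. It was 19.7 in KO TDLN 3 and 18.3 in WT TDLN 4. The ranges overlapped, at 17.6 ± 0.620 bases in KO tumors and 18.3 ± 1.81 in WT tumors (SD, n = 3 each; exact permutation p = 0.7, adjusted p = 0.856), and without WT tumor 3 the difference, KO minus WT, was 0.229 bases instead of -0.743. It was -1.22 bases without sequences of several letters (exact permutation p = 0.3). Without the largest member of each library it was -1.31, with 17.3 ± 0.535 bases in KO tumors and 18.6 ± 0.614 in WT tumors (exact permutation p = 0.1, the smallest possible, adjusted p = 0.367). Here too, WT tumors 2 and 4 keep few member reads, and relatives of the family make up much of them. An end of 20 bases was rare in the stricter set, in 1 of 54 sequences, while 16 bases was the most common (13 of 54). Ends shorter than 15 bases were found among rare sequences only and held little of any library.

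**Figure D5:**
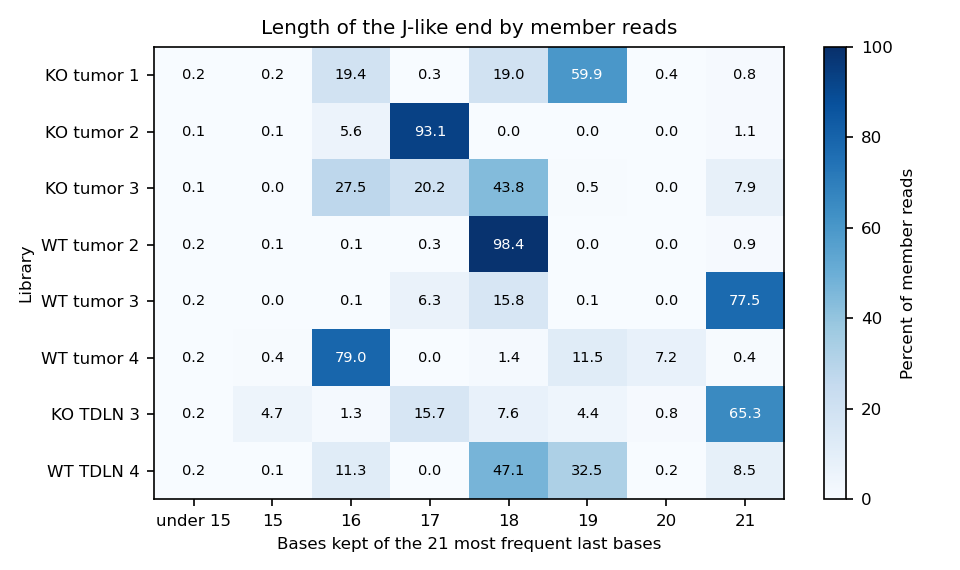
Percent of member reads (cells and colour) by the number of last bases that match the most frequent 21-base end, for each library. KO tumor 2 and WT tumor 2 sit almost wholly in 1 column each (17 and 18 bases). WT tumor 3 and KO TDLN 3 have 77.5% and 65.3% at the full 21 bases.

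In the middle of the loop, the 3-residue motifs found under the most letters were RTG, TGG, GNQ, GGN, LGQ, AGG and RAG, each under 6 letters, then GSQ, GGS and GQG under 5. Several of these are the family's own letters: 70 of the 83 members with RTG and 70 of the 82 with TGG lie 1 residue from the family, and RTG was in 0 of 47 sequences of the stricter set. LGQ and GQG had no such relatives among their 38 and 43 members, but only 2 and 4 of these were in the stricter set. GQG was in 7.49% of members and 2.54% of all other TRB sequences, and in 4 of 47 of the stricter set (8.51%) against 1.75% of other sequences kept by the same rule. Those 4 were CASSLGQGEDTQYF, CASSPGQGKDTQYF, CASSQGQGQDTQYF and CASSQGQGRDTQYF. The last pair differ by 1 residue and were both large in KO tumor 3, so they may not count as separate cases. By reads, GQG was in 93.0% of member reads of KO tumor 2, 26.7% of KO tumor 3, 6.25% of WT tumor 3 and 14.7% of KO TDLN 3, and in under 1% of the other 4 libraries.

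A pair of glycines (GG), which is common where a D segment is read in its glycine frame, was in 192 of 574 members (33.4%) and 29.2% of the others. Within tumor libraries the share of different sequences with GG averaged 42.2% ± 16.04 for members and 36.8% ± 16.5 for the others (SD, n = 6). It was higher for members in 4 of 6 tumors (exact sign-flip permutation p = 0.5, adjusted p = 0.786). Without the relatives of the family the difference was -9.21 points, so its direction rested on them. By reads GG was in 39.2%, 0.932% and 31.6% of member reads of KO tumors 1, 2 and 3, against 0.670%, 13.6% and 94.6% in WT tumors 2, 3 and 4. It was in 6.34% in KO TDLN 3 and 2.54% in WT TDLN 4. KO tumor 1 and WT tumor 4 have the same encoding of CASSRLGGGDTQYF. In KO tumor 1, however, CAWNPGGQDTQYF, which also holds GG, had more reads (372 against 353).

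Within the stricter set a few members lay 1 residue apart. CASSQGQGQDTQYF and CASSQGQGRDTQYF were both in KO tumor 3 (2484 and 1651 reads), and a further relative, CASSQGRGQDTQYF, had 15 reads in WT tumor 4. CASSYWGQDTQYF had 547 reads in KO tumor 1, and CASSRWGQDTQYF, 1 residue away, had 538 reads in KO TDLN 3. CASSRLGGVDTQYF accompanied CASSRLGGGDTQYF in each library with over 10 reads of it, with 28 reads in KO tumor 1 and 682 in KO tumor 3, against 35 in WT tumor 4. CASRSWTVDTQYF accompanied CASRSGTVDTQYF, with 91 reads in KO tumor 2 and 22 in KO tumor 3.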

How the data were processed

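The deposited table joins TRUST4 report rows of all libraries, each with a read count, a fraction of its chain, a CDR3 and segment names, per the file headers. The counts are raw read counts per assembled CDR3 as the authors deposited them, and the fraction column is the authors' own. The aligner version and read filters are not given in the sources used here, and the genome build is GRCm39 per the submitters' processing notes. Chains were told apart by the prefix of the segment names.

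Here, productive TRB rows were merged by CDR3 nucleotide sequence within a library, whatever their V name, and members were taken by the rule given above. A row named WT tumor 1 with the library code of WT tumor 2 was used as WT tumor 2. Members and lists were chosen with earlier results of these data known. KO and WT tumors (3 libraries each) were compared over 14 CDR3 end classes with edgeR 4.0.16 (glmQLFit and glmQLFTest, total productive TRB reads as scale, Benjamini-Hochberg, threshold 0.05). The same edgeR steps were also run on simulated counts with set dispersions, and the rates of recovery are not given here. Single values were compared with exact permutation tests (20 assignments, or 64 sign flips over 6 tumors). These 11 single-value tests were adjusted together. Their smallest possible p-values are too large for any of the adjusted values to fall under 0.05. Lymph nodes had 1 library a genotype with TRB rows and no test. DESeq2 1.42.0 and limma 3.58.1 in R 4.3.3, TMM scaling, read minimums, 1-base variants, sequences of several letters, relatives of the family, the replicate block and each library left out were alternatives. Members named are the 20 with the highest mean share, the largest 3 of each library and those under 4 or more letters. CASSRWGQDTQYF and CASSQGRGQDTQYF were named after their values were seen, as were the stricter set, the printed encodings of the 16-residue chain and the alternative without the largest member. The replicate numbers 2 and 3 occur in both genotypes but do not mark shared animals in the labels.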

Additional observations from a re-analysis of the deposited data

Results flagged for a closer look

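Outside the productive chains, 1767 reads over the 8 libraries were out of frame but ended in the members' last bases, above the 3 reads that a count of 0 allows in a library. They numbered 51, 186 and 324 in KO tumors 1, 2 and 3, against 10, 359 and 297 in WT tumors 2, 3 and 4, with 100 in KO TDLN 3 and 440 in WT TDLN 4. Set against the member reads of the library they came to 13.4% in WT TDLN 4 and 23.4% in WT tumor 4, and to between 0.268% and 2.58% elsewhere. That base leaves out the family, which has the same end residues. The family held 20.4% of TRB reads in WT tumor 4, against 0.674% for members, and 0.842% in WT TDLN 4, against 13.8%. In WT tumor 4, 18 of 22 such sequences were a larger productive sequence of the library with 1 base gained or lost (293 of 297 reads). In WT TDLN 4 this held for 3 of 12 sequences, with 4 of 440 reads.

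Rows with alpha chain V names held the CDR3 of a member in 4 cases, with 12 reads and 2 different sequences in all.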

How the results depend on the processing

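No comparison of the members passed the adjusted threshold of 0.05 in the main or any alternative setting. The single-value tests could not have passed it, given the smallest p-values that these libraries allow. The values below therefore concern direction. The edgeR log2 fold change of the member share, 0.10, was -0.10 with TMM scaling and -0.76 with DESeq2, which called 1 of 14 classes where edgeR called 0, and the range with one library left out was -1.03 to 2.70. With the replicate number as a block, which rests on numbers 2 and 3 alone, it was 0.65 (edgeR adjusted p = 0.985). Over the end classes the deviations of same-numbered libraries correlated at -0.315 for number 2 and 0.470 for number 3, so the numbers are not taken to pair libraries. The difference in clone number, 11.8, was -29.9 without sequences of several letters and -1.10 without the largest member, and ran over -32.2 to 64.05 with one library left out. It was -15.6 without WT tumor 2 and -15.7 without WT tumor 4. The clonality difference, -0.0870, was 0.347 and 0.295 under the same settings (-0.174 to -0.0163 with one library left out), and the largest sequence's difference, -28.1 points, was 20.3 without sequences of several letters (-46.5 to -16.8). Leaving one library out moved the differences in length over -0.906 to 0.110 residues, in glutamine over -52.1 to -5.08 points, in asparagine and glutamine over -36.0 to 2.61 points and in J bases over -1.56 to 0.229. Between members and others, one library left out gave -0.317 to -0.0205 residues over sequences, -1.14 to -0.704 by reads, 16.9 to 20.4 points for several letters and 0.671 to 10.8 points for GG. Length over sequences was 0.613 residues higher in members against chains ending EQYF, and the GG difference was -2.44 points without 1-base variants and -9.21 without relatives of the family. The cause of these changes was not tested. Depth limits WT TDLN 4 most, at 23755 productive reads, under the depth used for rarefaction.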

Other observations

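Among member sequences with at least 10 reads, 74 differed by 1 base from a sequence at least 10 times more abundant in the same library. The abundant partner was itself a member for 55 of these companions and a sequence of the family that was set aside for 19. Of the 55 beside members, 10 held 1% or more of the abundant sequence's reads. The lowest of the 10 was at 1.84% and the highest of the others at 0.843%. The minimum of 10 reads helps to make this gap. Beside abundant sequences of few reads, such as one of 923 in WT tumor 4, no companion under 1% could be listed. Of the 10, 9 carried a G-to-T change on the coding strand and 1 an A-to-G change. Over all 55 the most common changes were G-to-T (19), T-to-C (11) and G-to-A (10). A companion was counted once in each library that held it. The 9 are therefore not separate cases: they are the companions named in the next paragraph, each counted in more than 1 library. The number of each base in the sequences was not allowed for.

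The highest companions recurred in more than 1 library at a comparable level. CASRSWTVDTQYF stood at 8.87% of the reads of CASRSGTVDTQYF in KO tumor 2 and 5.47% in KO tumor 3. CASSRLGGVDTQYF stood at 8.05% of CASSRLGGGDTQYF in KO tumor 1 and 4.87% in KO tumor 3, against 3.68% in WT tumor 4, and it did so beside both encodings of that chain. A synonymous companion of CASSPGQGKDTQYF stood at 2.81% in KO TDLN 3 and 5.14% in WT tumor 3. One of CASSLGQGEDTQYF stood at 1.93% in KO tumor 2 and 2.02% in KO tumor 3, and it is the second encoding of that chain shown here, after the main one.
Main encoding of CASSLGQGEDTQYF: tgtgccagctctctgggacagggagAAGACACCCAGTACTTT
Synonymous companion of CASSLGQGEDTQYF: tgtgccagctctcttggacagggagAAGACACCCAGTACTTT
All of these companions are counted as members, and 2 of the 35 members named by the rule, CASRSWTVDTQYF and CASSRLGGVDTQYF, are companions at 1% or more. Several other named members, relatives of the family, are companions of family sequences at under 1%. Whether any of these companions are separate clones or copies made during library preparation was not tested.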
